A study of Mus musculus with 4 samples.

Results

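MHC class II presentation is described here through 10 of the 22103 entries in a table of liver RNA levels: the class II chains H2-Aa, H2-Ab1 and H2-Eb1, the invariant chain Cd74, the peptide loading genes H2-DMa, H2-DMb1, H2-DMb2 and H2-Oa, the transactivator Ciita and the protease Ctss. All 10 symbols were found in the table. The members were chosen by name from knowledge of the pathway, after a rise of H2-Aa and H2-Eb1 had been seen in the same livers, so the difference between the genotypes is given below as a description of the members and no test of it is reported for them. The RNA came from whole livers of 2 WT mice and 2 Brg1 LKO mice. In Brg1 LKO mice, floxed Smarca4, the gene of the chromatin remodelling ATPase Brg1, is deleted by Cre recombinase under the albumin promoter. The study that made these data describes the deletion as specific to hepatocytes. The state of Smarca4 in the other cells of the liver cannot be told from RNA of whole tissue. Whether the WT mice carried floxed alleles is not given in the sources used here. All 4 mice had been given ethanol, for 15 days according to the labels and by chronic feeding with a single binge (the NIAAA model) according to the methods of the study, which used male mice aged 8 weeks. There was thus no liver without ethanol, and the comparison asks what loss of Brg1 from hepatocytes did to livers that were all exposed. The livers are called WT1, WT2, KO1 and KO2.

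MHC class II molecules are pairs of an alpha and a beta chain that show peptides from endocytosed proteins to CD4+ T cells. Newly made pairs are held by the invariant chain Cd74. Cathepsin S, the product of Ctss, trims Cd74 to a short fragment in the endosome, H2-DM exchanges that fragment for peptide, and H2-O restrains H2-DM. Transcription of the class II chain, Cd74 and H2-DM genes is switched by Ciita, which binds no DNA itself and works through factors on the X and Y boxes of their promoters. In the liver, class II is known chiefly from Kupffer cells and other macrophages, dendritic cells and B cells, with lower levels on sinusoidal endothelium, and little of it is found on resting hepatocytes.

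Levels are in FPKM, fragments scaled to the length of the transcript and to the size of the library, which allows comparison between genes of different length. From the steps between low FPKM values, the libraries held an estimated 72588470 to 80917090 reads, and reads quoted for single genes are estimates too. Smarca4 itself was lower in the Brg1 LKO livers, at 1.87 ± 0.116 FPKM in WT and 0.593 ± 0.0204 FPKM in Brg1 LKO (SD, n = 2 each), a log2 difference of -1.50 (limma, unadjusted p = 0.000548, Benjamini-Hochberg adjusted p = 1.00). Differences are on the log2(FPKM + 0.1) scale, KO minus WT, which understates the change of genes with low levels. A gene is said to be past the threshold at an unadjusted limma p under 0.05 and a log2 difference beyond 1 in either direction. The test covered the 12346 genes that averaged 0.1 FPKM or more over the livers. Of these, 121 were past the threshold, of which 54 were higher in the Brg1 LKO livers, and the adjusted p was under 0.05 for 0 genes, against 247 at an unadjusted p under 0.05. With 2 livers against 2, permutation of the livers cannot give a two-sided p under 0.333.

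Promoter sequences are shown first because Ciita acts through them. RefSeq windows on GRCm38.p6, from 250 bases before to 50 bases after each start, were present for 7 of the 10 members, with 8 windows in all, and none was available for H2-Ab1, Cd74 or Ciita. The letters searched, on both strands, were TGATTGG, the core of the Y box, GCAAC, a piece of the X box, and GATGATG, a piece of the X2 box. These were picked from textbook descriptions after the windows had been read, so the shares below describe the windows and are no test. Capitals below mark those letters, and each stretch of 60 bases reads 5′ to 3′ on the strand of the gene.
H2-Aa: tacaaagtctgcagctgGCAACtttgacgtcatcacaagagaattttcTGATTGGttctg
H2-Eb1: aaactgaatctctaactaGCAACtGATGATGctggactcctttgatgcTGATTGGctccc
H2-Oa: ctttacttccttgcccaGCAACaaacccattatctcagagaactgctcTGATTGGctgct
H2-DMb1: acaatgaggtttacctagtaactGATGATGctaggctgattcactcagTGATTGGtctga
H2-DMb2: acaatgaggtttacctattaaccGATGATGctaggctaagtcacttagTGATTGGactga

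The stretch of H2-Aa lies on the minus strand at chr17:34287862-34287921, and those of the other genes on the plus strand at chr17:34305758-34305817 (H2-Eb1), chr17:34092286-34092345 (H2-Oa), chr17:34153080-34153139 (H2-DMb1) and chr17:34145109-34145168 (H2-DMb2). TGATTGG was in 5 of the 8 windows, against 7.82% of all 32851 windows of this length. In H2-Aa, H2-Eb1 and H2-Oa, GCAAC began 31, 30 and 31 bases before it. Relative to the RefSeq start, TGATTGG began at position -50 in H2-Aa, -61 in H2-Eb1, -45 in H2-Oa, -63 in H2-DMb1 and -92 in H2-DMb2. The transcript under which the level of H2-DMb1 is listed begins earlier, at chr17:34153072, so that the stretch of H2-DMb1 lies inside it. A GCAAC 20 to 45 bases before a TGATTGG was found in 3 of the 8 windows and in 0.256% of all windows, whereas GCAAC alone was in 35.2% of them. GATGATG was in 3 of the 8 windows, at 24 bases before TGATTGG in H2-Eb1 and at 25 in H2-DMb1 and H2-DMb2, and in 3.48% of all windows. For H2-DMa, 1 of its 2 windows held a GCAAC on the opposite strand and none of the other letters, and none of the 3 was in the window of Ctss. A missing match says only that these letters are not in the window.

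The class II chain genes were higher in both Brg1 LKO livers than in either WT liver. H2-Aa, the alpha chain of H2-A (ENSMUST00000040655, GRCm38 chr17:34282744-34287823, minus strand, 5 exons), was at 2.49 and 2.53 FPKM in WT1 and WT2 and at 6.36 and 5.55 FPKM in KO1 and KO2. The WT livers were nearly equal and both Brg1 LKO livers stood well above them. The group means were 2.51 ± 0.0305 and 5.96 ± 0.575 FPKM (SD, n = 2 each), a ratio of 2.37 and a log2 difference of 1.21 (SE 0.33), from an estimated 227 and 228 reads in WT and 561 and 454 in Brg1 LKO. Its partner H2-Ab1, the beta chain of H2-A (ENSMUST00000040828, chr17:34263209-34269419, plus strand, 6 exons), was at 1.01 and 1.21 FPKM in WT and at 2.34 and 2.25 FPKM in Brg1 LKO. The groups again did not overlap, with a ratio of 2.07 and a log2 difference of 0.99 (SE 0.34). H2-Ab1 thus lay just under a log2 difference of 1 and H2-Aa above it.

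H2-Eb1, the beta chain of H2-E (ENSMUST00000074557, chr17:34306017-34316199, plus strand, 6 exons), had the largest log2 difference among the members. It was at 0.397 and 0.719 FPKM in WT and at 1.70 and 1.44 FPKM in Brg1 LKO, which did not overlap although the WT livers differed more from each other than for H2-Aa. The means were 0.558 ± 0.228 and 1.57 ± 0.179 FPKM (SD, n = 2 each), a ratio of 2.81 and a log2 difference of 1.38 (SE 0.37). The estimated reads were 37.6 and 67.2 in WT and 155 and 123 in Brg1 LKO, fewer than for the other chains. H2-Eb2, a further beta chain gene of this locus, was at an estimated 1.54 reads or fewer in every liver. Neither H2-Ea, the alpha chain gene of H2-E, nor the pseudogene symbol H2-Ea-ps had an entry in the table. Whether these mice make an alpha chain for H2-Eb1 to pair with is therefore not known from these values.

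Cd74, the invariant chain that accompanies the class II pair (ENSMUST00000097563, chr18:60803848-60812646, plus strand, 9 exons), was the member with the highest mean level. It lies on another chromosome than the chains and was at 2.56 and 3.24 FPKM in WT and at 5.66 and 5.93 FPKM in Brg1 LKO. Both Brg1 LKO livers were above both WT livers, with means of 2.90 ± 0.481 and 5.80 ± 0.190 FPKM (SD, n = 2 each), a ratio of 2.00 and a log2 difference of 0.98 (SE 0.34). Per Cd74, H2-Aa was at 0.973, 0.781, 1.12 and 0.936 in WT1, WT2, KO1 and KO2, and per H2-Aa, H2-Ab1 was at 0.406, 0.478, 0.369 and 0.406. In both ratios the genotypes overlapped. H2-Eb1 per H2-Aa was at 0.159 and 0.284 in WT and 0.267 and 0.260 in Brg1 LKO, so that WT1 alone was low.

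**Figure D1:**
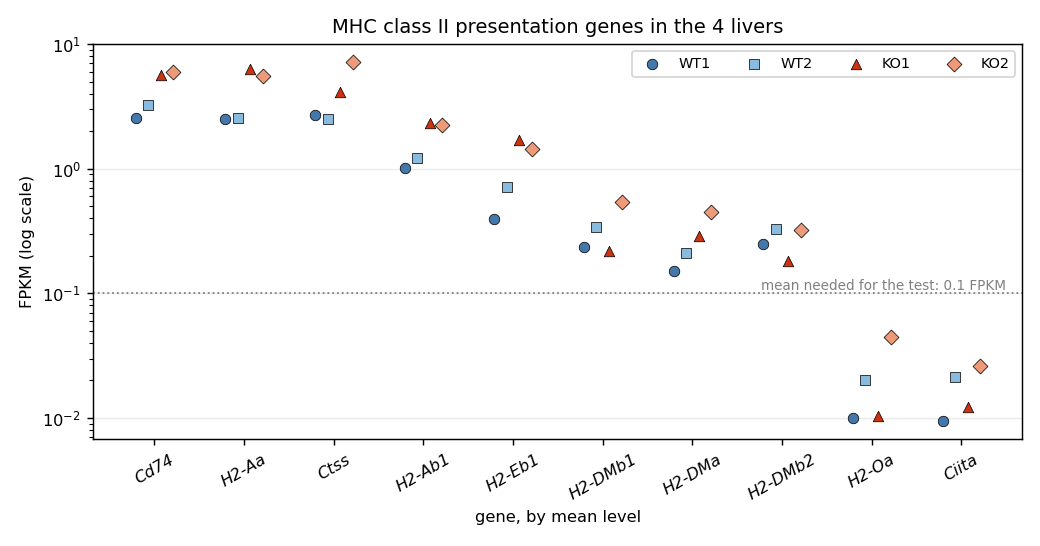
FPKM (log axis) of each of the 10 genes in each of the 4 livers, with 1 point per liver and genes ordered by their mean level. For H2-Aa, H2-Ab1, H2-Eb1, Cd74, H2-DMa and Ctss both Brg1 LKO points lie above both WT points, for H2-DMb1, H2-DMb2, H2-Oa and Ciita the genotypes overlap, and the last 2 lie under the 0.1 FPKM needed for the test.

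The peptide loading genes were low, at 0.540 FPKM or less in every liver, and did not all take the same direction. H2-DMa, the alpha chain of H2-DM (ENSMUST00000042121, chr17:34122832-34139101, plus strand), was at 0.151 and 0.209 FPKM in WT and at 0.288 and 0.452 FPKM in Brg1 LKO. The groups did not overlap, with a ratio of 2.05 and a log2 difference of 0.73 (SE 0.37), but the values rest on an estimated 20.3 to 54.4 reads. Without KO2 the difference was 0.48. H2-DMb1 (ENSMUST00000114232, chr17:34153072-34160230, plus strand), one of the beta chain genes of H2-DM, was at 0.238 and 0.339 FPKM in WT, 0.219 FPKM in KO1 and 0.540 FPKM in KO2. KO1 was thus the lowest of the 4 livers and KO2 the highest, and the log2 difference of 0.23 (SE 0.41) became -0.27 without KO2 and 0.73 without KO1. H2-DMb2, the other beta chain gene (ENSMUST00000171231, chr17:34145271-34151549, plus strand, 7 exons), was at 0.250 and 0.329 FPKM in WT, 0.181 FPKM in KO1 and 0.325 FPKM in KO2. It also overlapped between genotypes, with a log2 difference of -0.16 (SE 0.37) that became -0.46 without KO2 and 0.13 without KO1. The transcripts of the H2-DM beta genes are 94.7% identical over 1218 aligned bases and share 13.7% and 12.9% of their windows of 100 bases, so reads may have been split between them and the value of each is uncertain.

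H2-Oa, the alpha chain of the H2-DM inhibitor H2-O, was listed under a transcript annotated as a retained intron (ENSMUST00000174670, chr17:34092422-34095233, plus strand). Its values were 0.010 and 0.020 FPKM in WT and 0.010 and 0.045 FPKM in Brg1 LKO. These values correspond to 1 or 2 reads in WT and to 1 and 4 in Brg1 LKO, where 3 reads were taken as the limit set by counting error, and no ratio is given. H2-Ob, which encodes the beta chain of H2-O, had 0 and 5 reads in WT and 1 and 8 in Brg1 LKO. A change of H2-O was not detectable at this depth.

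Ciita, the transactivator of the class II genes (ENSMUST00000023147, chr16:10488279-10528418, plus strand, 19 exons), was detected at very low levels in all 4 livers, and the genotypes overlapped. It was at 0.00941 and 0.0214 FPKM in WT and at 0.0122 and 0.0262 FPKM in Brg1 LKO, that is, an estimated 4.57, 10.3, 5.71 and 11.4 reads. The replicates within each genotype differed by more than the genotypes did, and with a mean under 0.1 FPKM the gene did not enter the test. The chains of H2-A thus stood more than 2-fold higher in livers in which a difference of Ciita could not be seen at this depth.

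Ctss, encoding the protease that trims the invariant chain (ENSMUST00000015667, chr3:95526786-95556400, plus strand, 8 exons), was at 2.70 and 2.50 FPKM in WT and at 4.09 and 7.19 FPKM in Brg1 LKO. Both Brg1 LKO livers lay above both WT livers, but they differed from each other more than for any chain. The means were 2.60 ± 0.139 and 5.64 ± 2.19 FPKM (SD, n = 2 each), a ratio of 2.17 and a log2 difference of 1.03 (SE 0.36). Without KO2 the difference was 0.63, and without KO1 it was 1.43. Per Cd74, Ctss was at 1.05 and 0.773 in WT, 0.722 in KO1 and 1.21 in KO2, so the proportion of protease to invariant chain was lowest in the one Brg1 LKO liver and highest in the other.

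Of the 10 members, 8 reached the mean of 0.1 FPKM. Among these, 7 had a higher mean in the Brg1 LKO livers and 1, H2-DMb2, a lower one, with a median log2 difference of 0.99, while over all genes tested the median was -0.02 and 46.1% were higher. Both Brg1 LKO livers were above both WT livers for 6 of the 8, where the same held for 10.7% of all genes tested. H2-Aa, H2-Eb1 and Ctss had a log2 difference above 1. With a pseudocount of 1 in place of 0.1 none of the 3 did, at 0.98, 0.73 and 0.84, and Ctss was also under 1 without KO2 (0.63) and without WT2 (0.98). Since this contrast prompted the choice of the members, nothing is read from these counts. The reads come from whole tissue, so that a change in the number of cells of a type and a change in the RNA per cell cannot be told apart.

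The Brg1 LKO livers were not alike in how the members stood. Against the WT mean, H2-Aa was at 2.53 in KO1 and 2.21 in KO2, H2-Eb1 at 3.04 and 2.59, H2-Ab1 at 2.11 and 2.03, and Cd74 at 1.95 and 2.05. Chains and invariant chain thus stood above WT by similar amounts in both livers. H2-DMa stood at 1.60 and 2.51, H2-DMb1 at 0.759 and 1.87, H2-DMb2 at 0.626 and 1.12, and Ctss at 1.57 and 2.76. For these 4 genes KO2 was the higher liver. Over all genes tested, the median log2 difference from the WT mean was -0.17 in KO1 and 0.12 in KO2. The median gene was thus higher in KO2 as well, and the ratios above are not corrected for that.

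**Figure D2:**
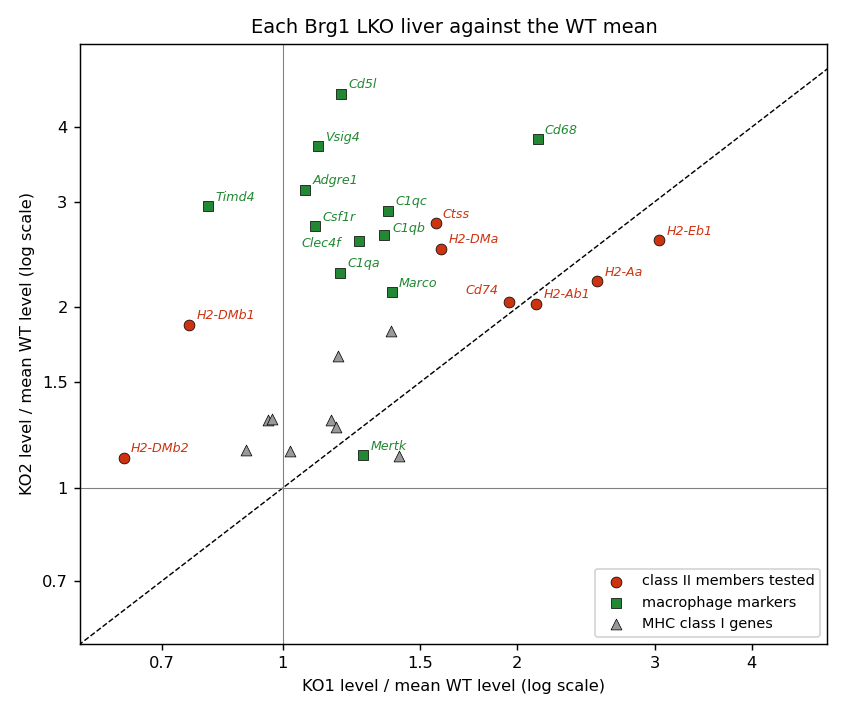
Level in KO1 (horizontal) and in KO2 (vertical), each divided by the mean of the WT livers, on log axes, with 1 point per gene and equality of the livers as a dashed line. H2-Aa, H2-Ab1, H2-Eb1 and Cd74 lie close to that line at about 2 or above, whereas Ctss, H2-DMa, H2-DMb1, H2-DMb2 and all macrophage markers except Mertk lie above it. The ratios are not corrected for the median of all genes tested, which was higher in KO2 than in KO1.

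Markers of macrophages also had higher means in the Brg1 LKO livers, and in them the difference rested chiefly on KO2. All 12 macrophage markers had a higher mean in the Brg1 LKO livers, with log2 differences of 0.26 to 1.47 and a median of 0.80. For 9 of them both Brg1 LKO livers were above both WT livers, where the same held for 10.7% of all genes tested. Cd68, Cd5l and Vsig4 were past the threshold on the higher side, as were 0.437% of all genes tested (limma, adjusted p = 1.00 for each). Without KO2 the log2 differences of Cd68, Cd5l and Vsig4 were 1.05, 0.25 and 0.15. With all 4 livers kept, Cd68 was past the threshold in every alternative tried. Cd5l and Vsig4 were not past it under median-ratio rescaling, quantile normalization or no filter. Vsig4 also was not past it with a pseudocount of 1 or 0.01, or under eBayes with no trend. C1qa, Clec4f and C1qb, complement and lectin genes of Kupffer cells, had the highest levels of the list, with log2 differences of 0.71, 0.84 and 0.91. The summed level of the 12 was 49.5 and 50.8 FPKM in WT1 and WT2, 64.2 in KO1 and 140 in KO2. The median difference of the list was 0.29 without KO2 and 1.38 without KO1. The same medians were 0.79 and 1.00 for the class II members, and -0.17 and 0.12 for all genes tested. The sum of the 3 chains and Cd74 was 6.45 and 7.70 FPKM in WT, 16.1 in KO1 and 15.2 in KO2. Divided by the macrophage sum it came to 0.130 and 0.151 in WT, 0.250 in KO1 and 0.108 in KO2. The ratio was therefore highest in KO1 and lowest in KO2, with the WT livers between them. Ctss divided by the same sum was at 0.0545, 0.0492, 0.0636 and 0.0512 in WT1, WT2, KO1 and KO2, a narrower span in which KO2 fell between the WT livers. The part of the macrophage markers in the levels of the members was not tested.

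Markers of dendritic cells and B cells, which also carry class II, were at low levels. Of 10 dendritic cell markers, 4 reached the filter, 1 of them higher and 3 lower, with a median log2 difference of -0.06. Zbtb46, a transcription factor of classical dendritic cells and the marker with the highest level, was at 0.566 and 0.547 FPKM in WT and 0.484 and 0.358 FPKM in Brg1 LKO. Flt3, a growth factor receptor of dendritic cells, overlapped between the genotypes with a log2 difference of -0.11. Batf3, a factor of cross-presenting dendritic cells, went the other way, at 0.104 and 0.0703 FPKM in WT and 0.144 and 0.368 FPKM in Brg1 LKO, from an estimated 4.50 to 21.4 reads. The summed level of the 10 markers overlapped between genotypes, at 1.05 and 1.20 FPKM in WT and 1.03 and 1.41 in Brg1 LKO. Of 7 B cell markers, 1 reached the filter (Cd22, log2 difference 0.24), and Pax5, which defines the B lineage, was listed at 0 in all 4 livers. Their sum was 0.226 and 0.426 FPKM in WT and 0.270 and 0.642 in Brg1 LKO. None of 5 NK cell markers and none of the 5 T cell markers in the table reached the filter. Among 4 monocyte markers tested 3 were higher and the median was 0.64, with summed levels of 8.20 and 9.21 FPKM in WT, 10.0 in KO1 and 19.1 in KO2, so this list too was highest in KO2. Among 4 neutrophil markers tested 3 were higher (median 0.47). The sum of all 6 listed, 11.4 and 4.33 FPKM in WT against 16.3 and 8.01 in Brg1 LKO, overlapped. By flow cytometry in the same model, the study found fewer Ly6G+ neutrophils in Brg1 LKO livers and little change of macrophages and of T, B and NK cells. The higher means of the macrophage markers here thus stand beside macrophage counts that the study found little changed. Adgre1, the gene of the macrophage surface marker counted there, was at 0.415 and 0.301 FPKM in WT1 and WT2. It was at 0.382 FPKM in KO1 and 1.12 FPKM in KO2, so that the genotypes overlapped. Of 8 sinusoidal endothelial markers 7 were lower (median -0.19), of 7 stellate cell markers 4 were higher (median 0.09), of 3 cholangiocyte markers 2 were lower (median -0.18), and of 8 hepatocyte markers 4 were higher (median 0.03). Rescaling by median ratios turned 1 of the endothelial, 1 of the stellate and 2 of the hepatocyte markers to higher, and quantile normalization turned 1 each of the dendritic, endothelial and hepatocyte markers. The tissue carried its label, with Alb, which encodes albumin, at a mean of 11598 FPKM in WT and 12206 FPKM in Brg1 LKO.

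The other genes of the pathway differed among themselves. Of 8 further endosomal proteases and reductases, 7 had a higher and 1 a lower mean in Brg1 LKO, with a median log2 difference of 0.21 and a largest value of 0.48, and after median-ratio rescaling all 8 were higher. Ctsl, cathepsin L, which can process the invariant chain in other cells, had the highest level, at 190 and 165 FPKM in WT, 299 in KO1 and 149 in KO2. Ctsd and Ctsz followed, with log2 differences of 0.02 and -0.03. The 7 genes of the proteins that bind the X and Y boxes (Rfx5, Rfxap, Rfxank, Nfya, Nfyb, Nfyc and Creb1) had a median of -0.04, with 3 higher and 4 lower, and the genotypes overlapped for all 7. Rfx5, a subunit of the factor on the X box, was at 0.397 and 0.501 FPKM in WT and 0.359 and 0.399 FPKM in Brg1 LKO.

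Of 10 genes on the route from interferon gamma to Ciita, 8 reached the filter, 4 of them higher and 4 lower (median -0.08). Ifng itself was listed at 0 in all 4 livers. Jak1, a kinase of the interferon receptor, and Ifngr1, a chain of that receptor, had log2 differences of 0.24 and 0.08. Irf1, a transcription factor induced by interferon, was at 2.76 and 3.07 FPKM in WT and 1.66 and 2.96 FPKM in Brg1 LKO. The genotypes overlapped, with a log2 difference of -0.38. Spi1, a myeloid factor that acts on the Ciita promoter of macrophages and dendritic cells, was highest in KO2, at 0.328 and 0.406 FPKM in WT, 0.491 in KO1 and 1.08 in KO2 (ratio of the means 2.14, log2 difference 0.84, limma adjusted p = 1.00).

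Marchf1, listed under its older symbol March1, is a ubiquitin ligase that removes class II from the surface of antigen presenting cells. It was at 0.0532 and 0.0629 FPKM in WT and at 0.132 and 0.228 FPKM in Brg1 LKO, from an estimated 18, 21, 43 and 69 reads. Both Brg1 LKO livers were above both WT livers, with a ratio of the means of 3.09, above that of any class II chain, and a log2 difference of 0.80 (limma, adjusted p = 1.00), which the pseudocount reduces at this level, and KO2 was again the higher. Its relative Marchf8, at higher levels, overlapped between the genotypes with a log2 difference of -0.12. Among the genes of costimulation, 4 of 6 reached the filter, of which Cd86 was higher (log2 difference 0.55) and Cd83, Icosl and Cd274 had lower means (median of the 4, -0.16). Cd86, which signals to T cells beside class II, was at 0.209 and 0.301 FPKM in WT and 0.322 and 0.526 FPKM in Brg1 LKO (limma, adjusted p = 1.00). Of the receptors that bind class II, Cd4 was at 0.127 and 0.0644 FPKM in WT and 0.0782 and 0.191 in Brg1 LKO, and Lag3 at 0.358 and 0.407 FPKM in WT and 0.0831 and 0.324 in Brg1 LKO. No gene of these lists had an adjusted p under 0.05, where 0 of all genes tested did (limma), and at an unadjusted p under 0.05 there were 247 of all genes tested.

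**Figure D3:**
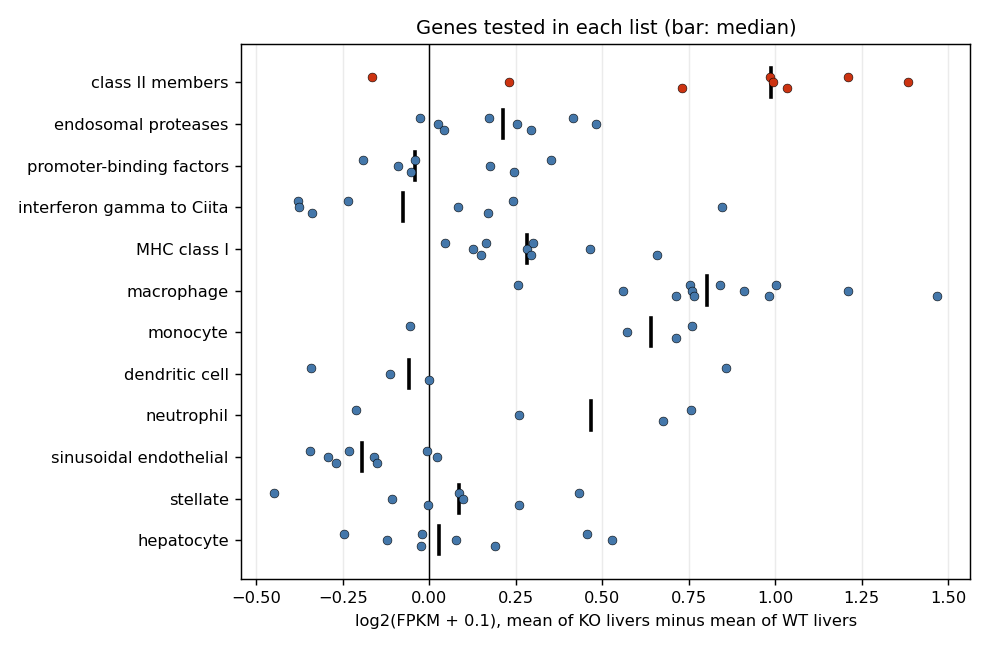
Difference between the mean of the Brg1 LKO livers and the mean of the WT livers on the log2(FPKM + 0.1) scale for every gene tested in 12 lists, with 1 point per gene and the median of each list as a bar. The median of the class II members, at 0.99, and that of the macrophage markers, at 0.80, lie to the right of the other lists, and the factors that bind the class II promoters lie around 0.

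MHC class I, which shows peptides from inside the cell to CD8+ T cells and shares the locus, was higher by less. All 9 genes of its list had a higher mean in Brg1 LKO, with log2 differences of 0.04 to 0.66 and a median of 0.28, though under quantile normalization 8 were higher and 1 lower. H2-K1, a class I heavy chain, was at 586 and 684 FPKM in WT and 732 and 824 FPKM in Brg1 LKO, far above any class II chain. H2-D1, a further heavy chain, had a log2 difference of 0.28. B2m, the light chain common to class I, overlapped between the genotypes with a log2 difference of 0.13. Nlrc5, the class I counterpart of Ciita, was at 0.596 and 0.694 FPKM in WT and 0.908 and 0.730 FPKM in Brg1 LKO, a log2 difference of 0.30 (limma, adjusted p = 1.00).

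The members on chromosome 17 lie close together. From the start of H2-Oa to the end of H2-Eb1, GRCm38 chr17:34092422-34316199, there are 223.8 kb with 14 genes of the table, 7 of them members. The other 6 genes tested in this interval had log2 differences of -0.04 to 0.66, with a median of 0.31. Brd2, a chromatin reader that lies between H2-Oa and H2-DMa, was at 17.6 and 25.7 FPKM in WT, 18.0 in KO1 and 58.4 in KO2, so that the genotypes overlapped and its log2 difference of 0.60 rests on KO2. Psmb9 and Psmb8, subunits of the immunoproteasome, had log2 differences of 0.66 and 0.47, and Tap1 and Tap2, which encode the peptide transporter, of 0.15 and 0.16. The chain genes, at one end of the interval, had the largest differences in it, and H2-DMb1 and H2-DMb2, with 0.23 and -0.16, were among the smallest.

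**Figure D4:**
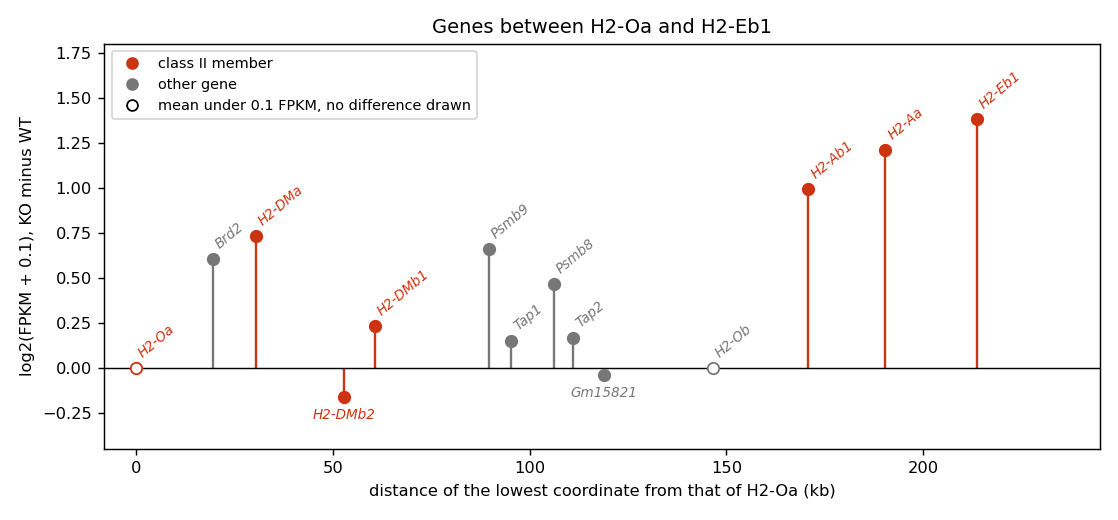
Difference on the log2(FPKM + 0.1) scale, KO minus WT, for the 14 genes of the table between H2-Oa and H2-Eb1 on chromosome 17, against the distance in kb from H2-Oa, with members in red and other genes in grey. H2-Ab1, H2-Aa and H2-Eb1 stand at 0.99, 1.21 and 1.38 at the right, and no other gene of the interval exceeds 0.73; open circles on the zero line are genes under the filter, for which no difference is drawn.

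Genes outside the pathway were ranked by how close their values over the 4 livers came to the mean profile of the 5 members with a mean of at least 1 FPKM, as the Euclidean distance between log2 values centred on each gene's own mean. The profile was -0.68, -0.44, 0.52 and 0.60 in WT1, WT2, KO1 and KO2. Among 7728 genes the closest 8 were Fasn, Srrm4, Cep85l, Sox6, Atp2a2, Elovl6, mt-Nd4l and mt-Atp8, at distances of 0.325 to 0.442. For comparison, Cd74 and H2-Ab1, which helped to make the profile, were at 0.151 and 0.160, and Ctss was the farthest of the 5 at 0.572. Fasn, fatty acid synthase, was at 9.06 and 10.4 FPKM in WT and 18.1 and 16.6 FPKM in Brg1 LKO, and Elovl6, which lengthens fatty acids, at 1.25 and 1.56 FPKM in WT and 2.20 and 2.48 FPKM in Brg1 LKO. The direction of Fasn is opposite to that in the study's qPCR, where Fasn was lower in Brg1 LKO than in WT livers in the same feeding model. No macrophage marker was among the 8, but a list this short out of 7728 genes cannot show whether such markers share the profile. The macrophage markers Adgre1, Timd4 and Mertk averaged under 1 FPKM and were not ranked. With 4 livers the measure orders genes by their values in these libraries and says nothing of shared function or control.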

How the data were processed

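Whole liver RNA of 2 WT and 2 Brg1 LKO mice was sequenced, and genotype and replicate number were taken from the sample labels. The authors deposited FPKM values, 1 per gene and liver, each under a transcript identifier and a symbol. According to the methods of the study, reads from stranded TruSeq libraries were trimmed with Trimmomatic, mapped to GRCm38 with HISAT2 and turned into FPKM with Cufflinks, whereas the labels name a BGIseq protocol and the submitters' processing notes name HISAT2 2.0.4 and StringTie 2.1.4. The authors' own test used DESeq on read counts, which are not used here. Because FPKM is relative to library size, a change in abundant genes shifts the values of the others.

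Of 22103 entries, 5250 were at 0 in all livers, 27 symbols turned into dates were restored and 83 shared a symbol. GENCODE M21 gave a transcript length for 98.3% of entries. Depth was estimated from transcripts of at least 2000 bases, where 88.6% to 89.6% of values of up to 20 reads lay within 0.1 of a whole read. A limit of 3 reads was used, which takes in counting error alone.

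For genes averaging 0.1 FPKM or more, log2(FPKM + 0.1) was fitted by limma 3.58.1 under R 4.3.3, with genotype as the only term and a mean-variance trend in eBayes, and p-values were adjusted by Benjamini-Hochberg over all 12346 genes. The limits on p and fold that the study set for its counts were applied on this scale, on which a low gene can exceed a ratio of 2 and stay under a log2 difference of 1, as H2-Ab1 and H2-DMa did. The procedure was tested on simulated data. The members, the gene lists and the tests were chosen with earlier results of these data known. Named are all members, the 3 highest and any gene past the threshold of each list, and the 8 genes closest in profile. The monocyte, B cell, T cell, NK cell, neutrophil, endothelial, stellate, cholangiocyte and hepatocyte lists are exceptions and are given mainly by counts and medians. Spi1, Batf3, Ifng, Rfx5, Nlrc5, Pax5, Alb and the neighbours on chromosome 17 were chosen after their values were seen. Alternatives tried were each liver left out, a replicate block, eBayes with no trend, rescaling by median ratios or quantiles, a filter at 1 FPKM or none, and pseudocounts of 0.01 and 1. Other computations used Python 3.11.15, NumPy 2.4.6 and pandas 2.3.3.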

Additional observations from a re-analysis of the deposited data

How the results depend on the processing

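The median log2 difference of the members, 0.99, became 0.69 with a pseudocount of 1, which shrinks genes with low levels, and lay between 0.79 and 1.05 when each liver was left out in turn. Without the filter, which brings in H2-Oa and Ciita, it was 0.86. Members with a higher mean in the Brg1 LKO livers numbered 7 of 8, and 6 to 8 when each liver was left out. H2-Aa, H2-Ab1, H2-Eb1, Cd74, H2-DMa and Ctss kept their direction in every alternative run for them, which for H2-DMa leaves out the filter at 1 FPKM, and no value was recomputed for single members under eBayes with no trend. With each liver left out, H2-DMb1 ranged from -0.27 to 0.73 and H2-DMb2 from -0.46 to 0.13, H2-Eb1 from 1.02 to 1.75 and H2-Aa from 1.11 to 1.31. With a pseudocount of 1, H2-Aa was at 0.98, H2-Ab1 at 0.65, H2-Eb1 at 0.73, Cd74 at 0.81, Ctss at 0.84 and H2-DMa at 0.21.

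Genes past the threshold, 121, numbered 18 with a pseudocount of 1, 80 with no filter and 68 with a filter at 1 FPKM, under which 2 genes had an adjusted p under 0.05. They numbered 231 without WT1, 78 without WT2, 552 without KO1 and 450 without KO2, and those with an adjusted p under 0.05 numbered 0, 0, 269 and 140, the lone liver of a group being assumed to vary like the other group. The median of all genes moved by more than 0.1 in those fits, from -0.17 to 0.12. With the replicate block 108 genes were past the threshold, and 357 had an unadjusted p under 0.05 (limma), against 247 without it. The deviations of same-numbered livers correlated at r = 0.031 over 12346 genes, a measure that cannot see a shift common to all genes. The factors of the median-ratio rescaling were 0.912 in WT1 and 0.884 in KO1, and 1.13 in WT2 and 1.11 in KO2. Whether the numbers pair the livers is therefore not settled. In this balanced design the block cannot move a log2 difference. The lowest levels, those of H2-Oa and Ciita, are limited by depth.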
